A study of Rattus norvegicus with 6 samples.

Results

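Transcripts of 7 genes that mark passage through the cell division cycle were followed in rat liver: Ccnd1, Pcna, Ccna2, Top2a, Cdk1, Ccnb1 and Mki67. They were chosen by gene ID, and the 7 IDs were found among the 43360 of each count table (Ccnd1 ENSRNOG00000020918, Pcna ENSRNOG00000021264, Ccna2 ENSRNOG00000015423, Top2a ENSRNOG00000053047, Cdk1 ENSRNOG00000000632, Ccnb1 ENSRNOG00000058539 and Mki67 ENSRNOG00000028137). The pairing of these IDs with symbols came with the choice of genes and was not checked against an annotation, because the reference table used here holds 0 Ensembl IDs. The other 9 gene lists drawn up for this work, with 133 symbols for other cell cycle genes and for markers of hepatocytes and other liver cell types, were for the same reason not analysed here, so the tissue label was not checked against markers.

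The study treated male Fischer-344 rats, an inbred strain, for 16 weeks. Control rats were given only the vehicle, 0.5% carboxymethyl cellulose, by mouth. HCC rats were given diethylnitrosamine (DEN), a carcinogen that alkylates DNA, at 50 mg/kg each week and then 2-acetylaminofluorene (2-AAF), a second liver carcinogen, at 25 mg/kg, a regimen used to induce hepatocellular carcinoma (HCC). HCC/NAC rats were given both carcinogens and N-acetylcysteine (NAC), a thiol antioxidant and cysteine donor, at 300 mg/kg daily. The design text counts 18 rats in all, each group is represented by 2 poly(A) RNA libraries, and the RNA of 5 animals per group went into these pools. The labels describe pooled animals and do not state how these were divided between the 2 libraries of a group. The p-values therefore reflect the spread of these libraries alone, part or all of which may be technical. The labels name liver tissue and do not say whether tumour or the tissue around it was taken.

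Hepatocytes of adult liver are almost all quiescent, but they can re-enter the cell cycle after injury or loss of tissue. Cyclin D1 with its kinases drives G1 and relieves the retinoblastoma proteins' block on E2F, which opens the transcription of replication genes. Many genes needed from S phase to mitosis are held silent in quiescent cells by the DREAM complex. Those of G2 and mitosis are switched on late. This works largely through elements in their promoters known as the CHR (cell cycle genes homology region) and the CCAAT box. In bulk RNA a higher level of such a gene can come from more cycling cells or from more RNA per cell, and these cannot be told apart here.

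The proximal promoters of genes described below are shown with their matches to these elements, and no relation between a match and a change in level was tested. They were taken from RefSeq on build GRCr8 and cover 250 bases before to 50 after the gene's start. The table held 5 of the 7 genes, all but Ccna2 and Ccnd1. Each is printed in the direction of transcription. Capitals mark TTTGAA or TTTAAA (CHR) and CCAAT, each searched on both strands. The build used by the authors for counting is not given in the sources used here, and the positions below are those of the sequences in GRCr8.
Mki67, chr1:199952544-199952843, minus strand: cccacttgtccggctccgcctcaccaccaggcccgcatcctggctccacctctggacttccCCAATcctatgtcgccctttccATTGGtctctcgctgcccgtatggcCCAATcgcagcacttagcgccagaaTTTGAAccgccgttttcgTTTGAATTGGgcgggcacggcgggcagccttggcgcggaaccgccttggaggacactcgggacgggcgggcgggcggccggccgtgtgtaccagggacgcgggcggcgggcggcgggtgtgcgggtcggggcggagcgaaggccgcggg
Top2a, chr10:84473044-84473343, minus strand: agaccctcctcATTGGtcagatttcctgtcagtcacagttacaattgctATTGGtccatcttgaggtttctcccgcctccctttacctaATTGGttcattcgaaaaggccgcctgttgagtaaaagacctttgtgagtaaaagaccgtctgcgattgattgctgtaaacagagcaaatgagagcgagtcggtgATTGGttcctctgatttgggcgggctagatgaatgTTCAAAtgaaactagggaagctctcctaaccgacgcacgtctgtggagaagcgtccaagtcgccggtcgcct
Cdk1, chr20:19265043-19265342, plus strand: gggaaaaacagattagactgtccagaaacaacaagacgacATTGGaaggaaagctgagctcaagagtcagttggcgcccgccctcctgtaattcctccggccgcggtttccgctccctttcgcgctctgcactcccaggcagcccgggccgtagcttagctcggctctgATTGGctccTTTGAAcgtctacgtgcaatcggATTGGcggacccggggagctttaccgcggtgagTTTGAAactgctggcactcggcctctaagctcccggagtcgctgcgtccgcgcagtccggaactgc
Ccnb1, chr2:33655176-33655475, minus strand: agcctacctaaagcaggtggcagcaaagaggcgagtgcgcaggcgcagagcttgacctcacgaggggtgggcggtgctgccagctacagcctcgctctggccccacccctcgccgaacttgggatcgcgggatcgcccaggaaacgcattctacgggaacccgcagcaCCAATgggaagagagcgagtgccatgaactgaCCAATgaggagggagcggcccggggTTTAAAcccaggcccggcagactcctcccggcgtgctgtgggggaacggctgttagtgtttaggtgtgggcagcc
Pcna, chr3:139955771-139956070, minus strand: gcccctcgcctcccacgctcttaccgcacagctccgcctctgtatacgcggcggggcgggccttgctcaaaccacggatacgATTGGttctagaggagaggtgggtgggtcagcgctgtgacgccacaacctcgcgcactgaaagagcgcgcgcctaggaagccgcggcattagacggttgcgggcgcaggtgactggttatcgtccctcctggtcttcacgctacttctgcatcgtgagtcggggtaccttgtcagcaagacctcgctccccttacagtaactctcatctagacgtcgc
A CHR match was present in Mki67, Top2a, Cdk1 and Ccnb1 and in 28.3% of all 33469 promoters of that length. No CHR match was found in the Pcna window. CCAAT was present in all 5 windows and in 37.5% of all promoters. Mki67 held CHR matches at 117 and 99 bases before the start, and a CCAAT match on the other strand begins on the last base of the second. Cdk1 held matches at 72 and 16 bases before the start, Top2a one at 22 and Ccnb1 one, TTTAAA, at 25 (distances are to the first base of the match). The E2F motifs TTTCCCGC, TTTGGCGC, TTTGGCGG and TTTCCCGG were in none of the 5 windows (0 members), and in 3.37% of all promoters. Only these spellings were searched, so the absence of E2F sites cannot be read from this. TTTCGCGC, another form of the E2F site, was not in the search and can be read in the Cdk1 window. A match describes the letters in these windows and was not tested as a binding site.

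Library totals ranged from 33917707 to 37717373 counts. Replicates differed by more than the counting error of independent reads in all groups. Levels are given as CPM, counts per 1000000 of the TMM-scaled library size. TMM is a scaling that balances the bulk of genes between libraries, and its factors were 0.91 to 0.92 in control and HCC/NAC and 1.18 to 1.19 in HCC libraries. All 7 genes passed the filter on low counts that left 16898 IDs for testing. The low counts were uneven between libraries: from the share of weakly expressed IDs that dropped to 0, an estimated 15.7 and 8.90 reads came from each molecule in control replicates 1 and 2, 5.30 and 5.40 in HCC and 16.4 and 14.4 in HCC/NAC. Several reads per molecule make the sampling error larger than that of independent reads. Whether replicates differed by more than this larger error was not tested.

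All 7 genes were higher in HCC than in control livers. Ccna2, Top2a, Cdk1, Ccnb1 and Mki67, called below the 5 genes of S phase to mitosis, rose 8.36-fold to 16.5-fold. Ccnd1 and Pcna rose 1.62-fold and 1.52-fold. The name is shorthand for the genes with the larger rises and does not set them apart by phase, since Pcna also acts in S phase. Across the 16898 IDs, 17.0% rose in this comparison and 17.8% fell (adjusted p under 0.05 in edgeR's quasi-likelihood test, adjusted by Benjamini-Hochberg over all IDs). The median log2 fold change was 3.42 for the 7 genes and 0.05 for all IDs. All 7 genes had both HCC libraries above both control libraries, as did 38.3% of all tested IDs. In the names of the deposited files, control libraries and carcinogen-treated libraries start with different letters. If that prefix stands for a batch, it cannot be told apart from the carcinogens in either comparison with control.

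Ccnd1 encodes cyclin D1, the G1 cyclin that responds to growth signals. Its level was 62.2 and 59.4 CPM in the control libraries, 99.4 and 97.6 CPM in HCC and 45.4 and 42.9 CPM in HCC/NAC. Both HCC libraries were highest and both HCC/NAC libraries lowest, with no overlap between the groups. Ccnd1 rose in HCC against control by 0.70 ± 0.08 on the log2 scale (SE, adjusted p = 2.25e-05, edgeR).

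Pcna encodes the sliding clamp that holds DNA polymerases on the template and also serves DNA repair. It measured 23.4 and 21.0 CPM in control, 34.2 and 33.4 CPM in HCC and 22.7 and 26.3 CPM in HCC/NAC. The HCC libraries lay above the other 4, and the control and HCC/NAC libraries overlapped. The rise in HCC against control was 0.61 ± 0.13 on the log2 scale (SE, adjusted p = 0.00251, edgeR).

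Ccna2 encodes cyclin A2, which works in S phase and G2. It had the lowest counts of the 7 genes, with 19 and 24 in control, 316 and 349 in HCC and 105 and 79 in HCC/NAC. This corresponded to 0.55 and 0.72 CPM, 7.01 and 8.71 CPM, and 3.16 and 2.43 CPM. The 3 groups did not overlap. The log2 fold change in HCC against control was 3.62 ± 0.38 (SE, adjusted p = 1.06e-05, edgeR). At the estimated number of reads per molecule, the control counts stand for only 1.21 and 2.70 molecules, so the size of this fold is loosely fixed. With all counts divided by that number the log2 fold change was 3.54. The division uses 1 number per library and is followed by scaling, so it cannot make the fold firmer.

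Top2a encodes topoisomerase II alpha, which untangles sister chromatids and accumulates from S phase to mitosis. Its level was 2.90 and 3.17 CPM in control, 26.0 and 24.8 CPM in HCC and 11.0 and 11.7 CPM in HCC/NAC. Its replicates lay closest together among the 5 genes of S phase to mitosis, within 1.10-fold in every group. The control counts of Top2a nevertheless stand for only 6.36 and 11.8 estimated molecules, so the size of its fold is loosely fixed too. The log2 fold change in HCC against control was 3.06 ± 0.18 (SE, adjusted p = 4.81e-08, edgeR).

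Cdk1 encodes the kinase that starts mitosis, and Ccnb1 encodes cyclin B1, its activating partner. Cdk1 measured 1.56 and 1.33 CPM in control, 14.9 and 16.2 CPM in HCC and 7.44 and 11.5 CPM in HCC/NAC. Ccnb1 measured 1.16 and 1.84 CPM in control, 26.4 and 23.1 CPM in HCC and 11.5 and 8.64 CPM in HCC/NAC. For both genes the HCC/NAC libraries stood between control and HCC without overlap. The Cdk1 replicates of HCC/NAC lay 1.54-fold apart, with replicate 2 higher, and the Ccnb1 replicates of control lay 1.59-fold apart, on counts of 40 and 61. In HCC against control Cdk1 rose by 3.42 ± 0.27 (SE, adjusted p = 9.27e-07, edgeR) on the log2 scale. Ccnb1 rose by 4.05 ± 0.26 (SE, adjusted p = 1.09e-07, edgeR), or 16.5-fold. The control counts of these genes also stand for few estimated molecules, 2.55 and 6.85 for Ccnb1 and 3.44 and 4.94 for Cdk1, so the size of both folds is loosely fixed as well. With counts per estimated molecule, which cannot make the folds firmer either, the log2 fold change was 3.92 for Ccnb1 and 3.55 for Cdk1.

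Mki67 encodes the Ki-67 protein, which coats mitotic chromosomes, is present in cycling cells and is used in pathology to count them. Its level was 3.53 and 2.93 CPM in control, 37.6 and 34.97 CPM in HCC and 17.98 and 23.5 CPM in HCC/NAC. The 3 groups did not overlap. In HCC against control Mki67 rose 11.2-fold, or 3.49 ± 0.18 on the log2 scale (SE, adjusted p = 1.98e-08, edgeR). Its control counts stand for 7.76 and 10.9 estimated molecules, so the size of this fold is loosely fixed as well.

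**Figure D1:**
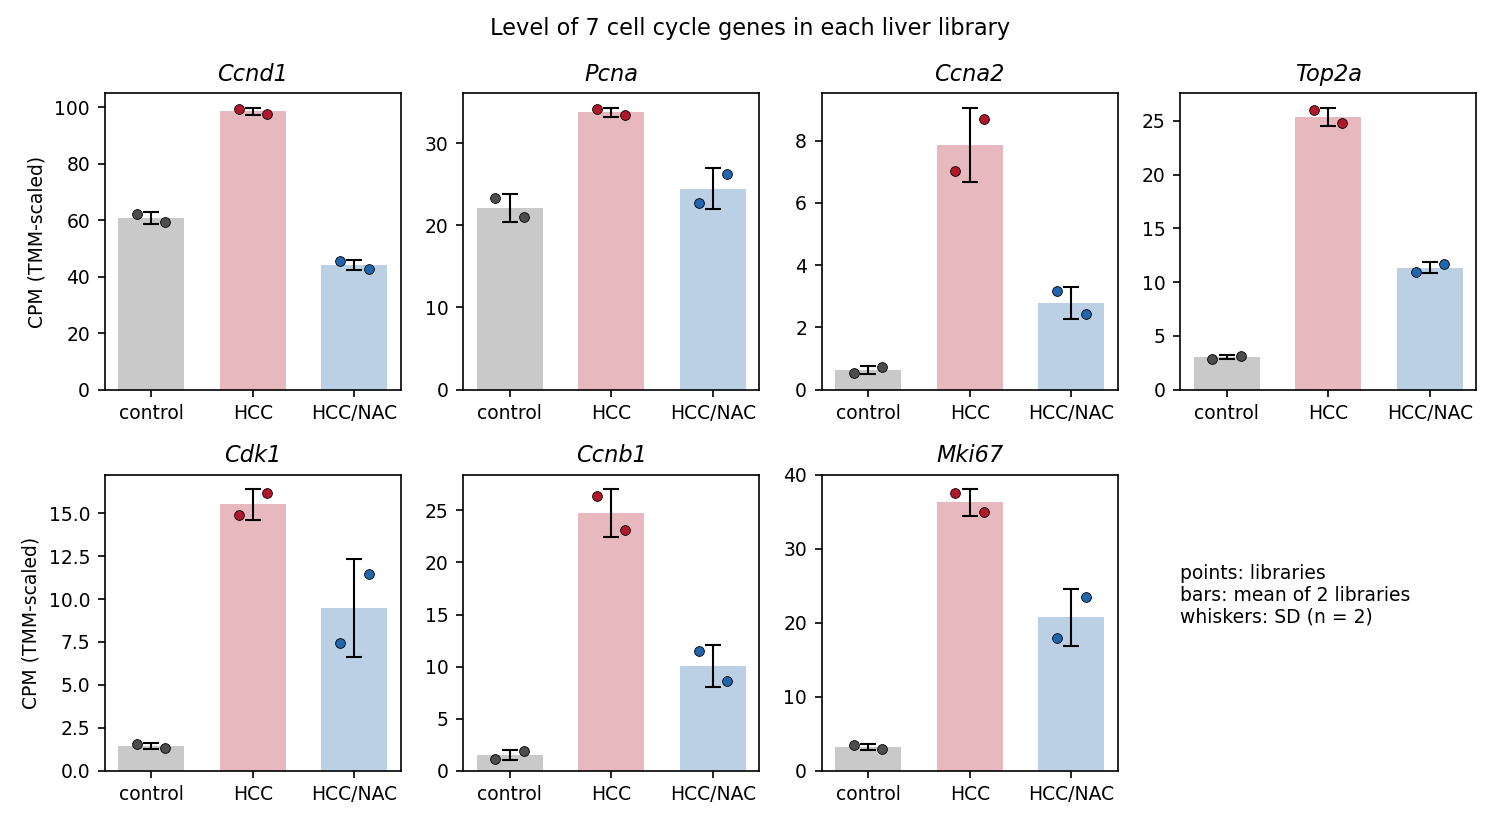
Level of each of the 7 genes in CPM (TMM-scaled, linear axes from 0) in control, HCC and HCC/NAC livers. Points are the 2 libraries of a group, bars their mean and whiskers the SD. The HCC libraries are highest in each panel, and the HCC/NAC libraries lie between control and HCC for Ccna2, Top2a, Cdk1, Ccnb1 and Mki67, overlap control for Pcna and lie below control for Ccnd1.

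The position of each gene among all tested IDs shows the same gap. Mki67 had a higher CPM than 37.6% and 40.5% of tested IDs in the control libraries and than 82.2% and 83.4% in the HCC libraries. Cdk1 moved from 28.6% and 30.7% in control to 64.5% and 66.3% in HCC. Ccnd1 was already above 87.9% and 88.4% in control, and stood above 93.7% and 93.9% in HCC and 86.1% and 86.8% in HCC/NAC. These shares are not corrected for transcript length and serve only to follow a gene from group to group. By size of change, Ccnb1 had a larger log2 fold change in HCC against control than 95.1% of all tested IDs, Top2a than 92.8%, Ccnd1 than 74.0% and Pcna than 72.0%.

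**Figure D2:**
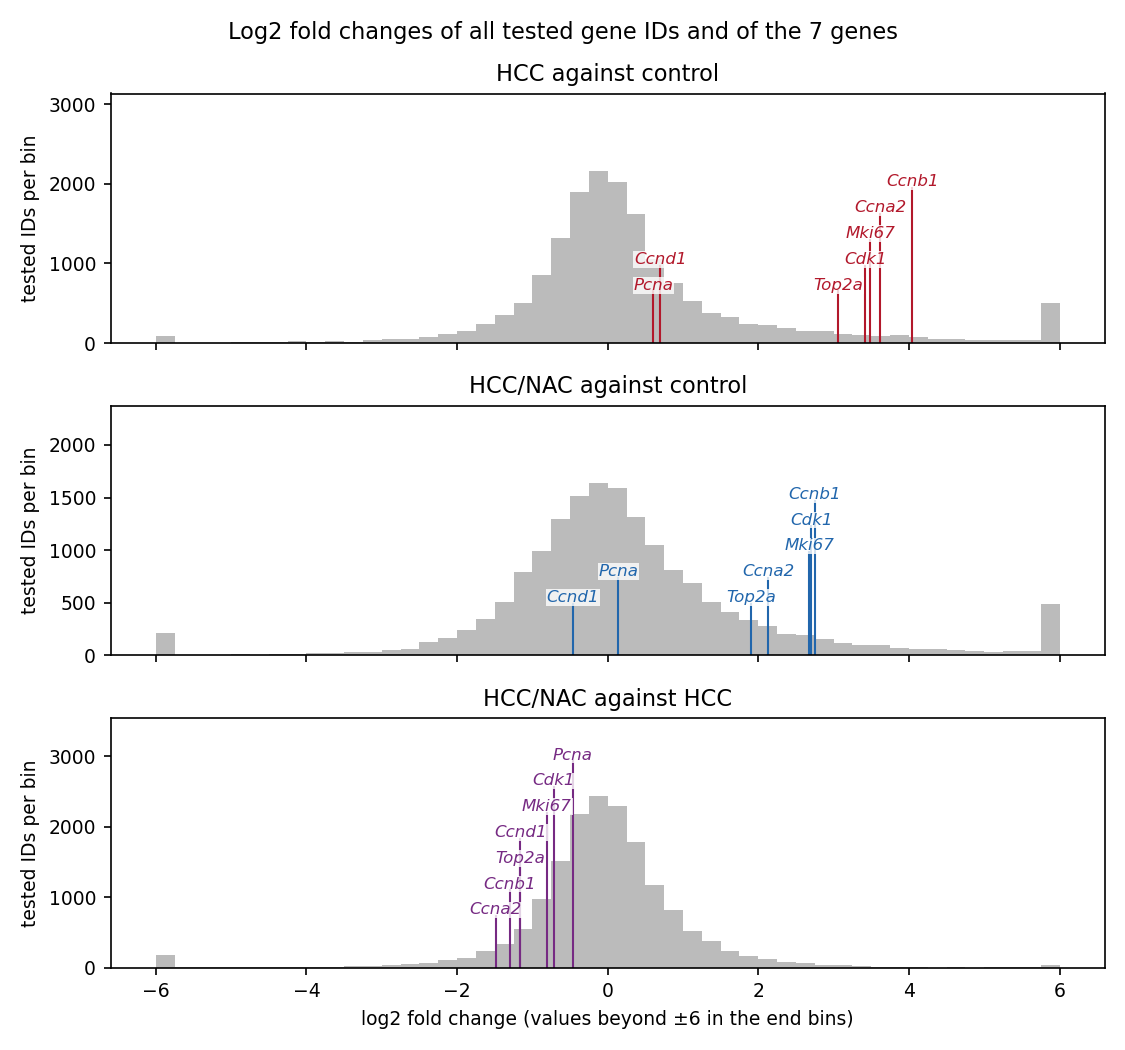
Number of tested gene IDs per bin of log2 fold change (0.25 wide, linear axes) in each of the 3 comparisons, with the 7 genes marked by lines whose heights only separate the names. In HCC against control the genes of S phase to mitosis lie from 3.06 to 4.05 and Pcna and Ccnd1 at 0.61 and 0.70; in HCC/NAC against HCC the 7 genes lie from -1.49 to -0.46.

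How far livers stayed from control when NAC accompanied the carcinogens was measured by HCC/NAC against control. The 5 genes of S phase to mitosis remained 3.74-fold to 6.71-fold above control, Ccnd1 was below control and Pcna had no call. Among all tested IDs 21.3% rose and 24.9% fell in this comparison. The median log2 fold change was 2.13 for the 7 genes and 0.05 for all IDs. Both HCC/NAC libraries lay above both control libraries for 5 of the 7 genes and below them for Ccnd1, as they did for 35.1% and 35.0% of all tested IDs. This comparison uses the same control libraries as the one above, so error in them enters both.

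Ccnb1 stood 6.71-fold above control (log2 fold change 2.75 ± 0.26 SE, adjusted p = 3.09e-06, edgeR). Cdk1 stood 6.52-fold and Mki67 6.40-fold above it (adjusted p = 6.22e-06 and 2.00e-07, edgeR). The folds of the cyclin A2 and topoisomerase transcripts were smaller, though not tested against the others. Ccna2 was 4.37-fold (adjusted p = 0.000580, edgeR) and Top2a 3.74-fold higher (adjusted p = 3.17e-06, edgeR). Pcna averaged 24.5 ± 2.5 CPM (SD, n = 2) against 22.2 ± 1.7 CPM (SD, n = 2) in control, a difference of 0.14 ± 0.13 on the log2 scale (SE, adjusted p = 0.391, edgeR). Ccnd1 fell by 0.46 ± 0.08 (SE, adjusted p = 0.000547, edgeR) on the log2 scale, from 60.8 ± 2.0 to 44.1 ± 1.8 CPM (SD, n = 2 each), or 1.38-fold. The fall of Ccnd1 was called in every alternative except the test against a 2-fold threshold, and the uncalled Pcna value was called in none (0 of 17).

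HCC/NAC against HCC compared carcinogen-treated livers with and without NAC. All 7 genes were lower with NAC, by 1.38-fold for Pcna to 2.81-fold for Ccna2. The HCC libraries also stood apart in their TMM factors and in reads per molecule, as given above. With counts per estimated molecule, on 11677 IDs, all 7 falls were called. That division uses 1 number per library before scaling, so it cannot remove such a difference between groups. The 7 falls were also called with library totals alone, but there the median of all IDs was -0.42, which favours falls. RLE and upper-quartile scaling each called 6 of the 7. Of all 16898 IDs, 2459 fell with RLE and 2406 with upper-quartile scaling. In a test against a 2-fold threshold none of these falls was called (0 of 7, edgeR). How many of all IDs were called in that test, or with counts per estimated molecule, was not counted. Both HCC/NAC libraries lay below both HCC libraries for each of the 7, as they did for 36.9% of all tested IDs. How many of all tested IDs kept the 3 groups apart, in any order, was not counted. Among all tested IDs 16.5% fell and 11.2% rose. The median log2 fold change was -1.16 for the 7 genes and -0.05 for all IDs.

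Ccnd1 fell 2.23-fold and had the smallest adjusted p of the 7 genes (log2 fold change -1.16 ± 0.08 SE, adjusted p = 7.15e-07, edgeR). Top2a fell 2.24-fold (-1.16 ± 0.16 SE, adjusted p = 0.000194, edgeR) and Ccnb1 2.46-fold (-1.30 ± 0.22 SE, adjusted p = 0.000759, edgeR). Mki67 fell 1.75-fold (-0.81 ± 0.16 SE, adjusted p = 0.00239, edgeR). For these 4 genes the call held whichever library was left out.

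The other 3 calls were less firm. Ccna2 fell by 1.49 ± 0.33 (SE, adjusted p = 0.00528, edgeR) on the log2 scale, but without HCC replicate 2 the call was lost at -1.33 (adjusted p = 0.142, edgeR). Pcna fell by 0.46 ± 0.13 (SE, adjusted p = 0.0160, edgeR) and had no call without HCC replicate 1, HCC replicate 2 or HCC/NAC replicate 1 (adjusted p = 0.138, 0.101 and 0.0684, edgeR). Cdk1 fell by 0.72 ± 0.24 (SE, adjusted p = 0.0408, edgeR). It lost its call without each of these same 3 libraries (adjusted p = 0.170, 0.263 and 0.171, edgeR), and its log2 fold change shrank to -0.44 without HCC/NAC replicate 1, the lower of its widely spaced pair. Cdk1 also had no call with RLE scaling, upper-quartile scaling (adjusted p = 0.0570 and 0.0613, edgeR) or DESeq2 (adjusted p = 0.0822).

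**Figure D3:**
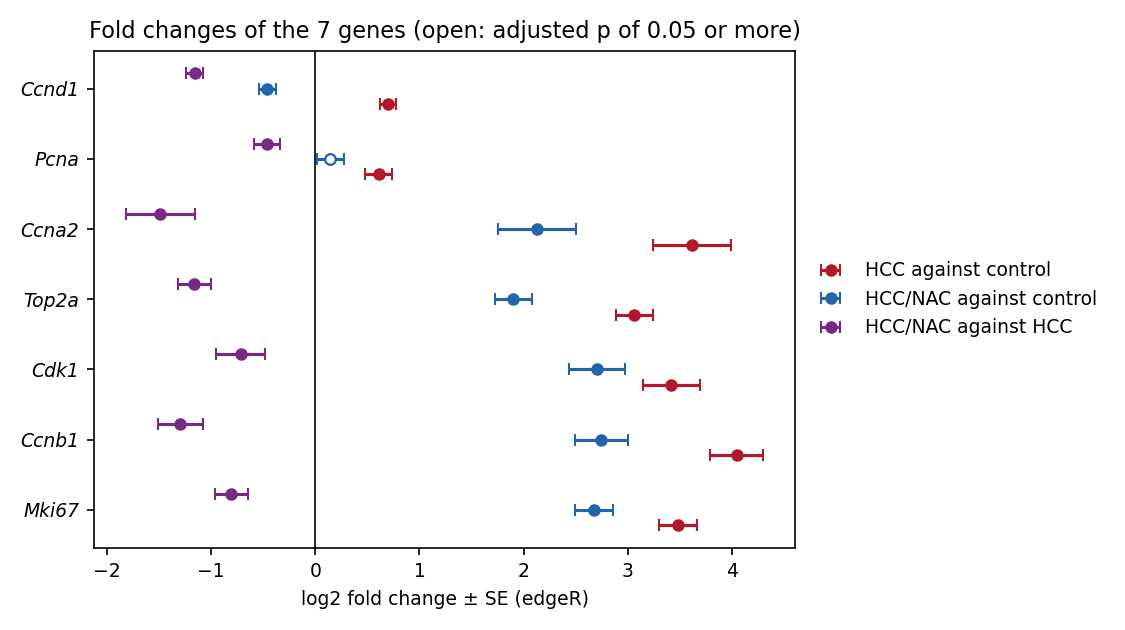
Log2 fold change ± SE (edgeR) of each gene in the 3 comparisons, with an open symbol where the adjusted p was 0.05 or more. Pcna in HCC/NAC against control, at 0.14, is the open symbol, and Ccnd1, at -0.46, is the gene left of 0 in that comparison.

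**Figure D4:**
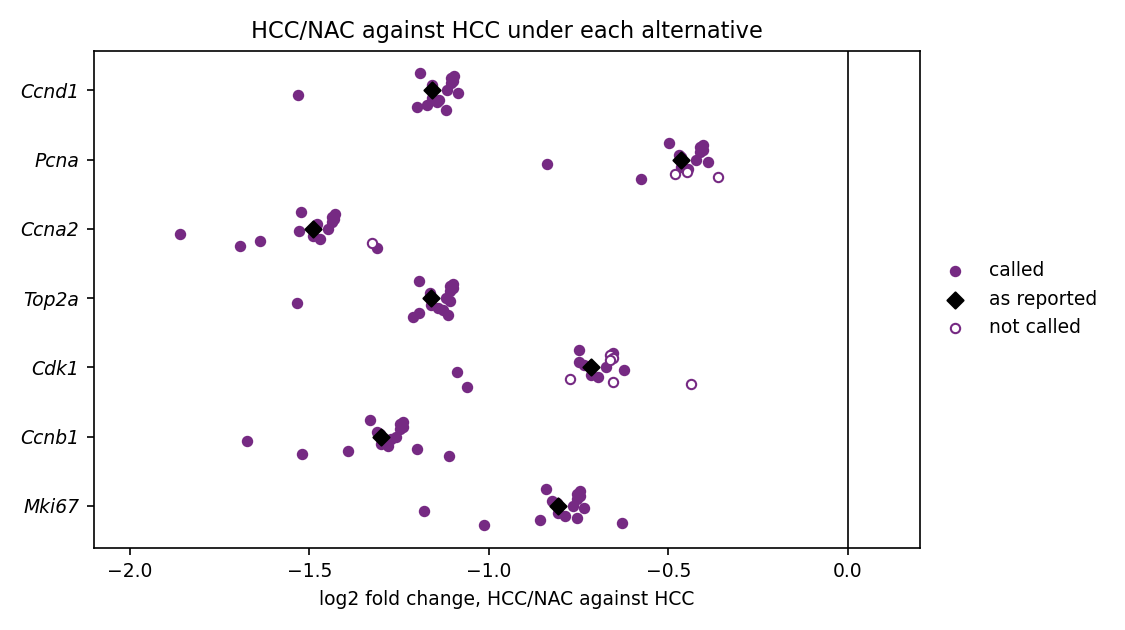
Log2 fold change of each gene in HCC/NAC against HCC as reported (diamonds) and under 16 alternatives (circles, open where the adjusted p was 0.05 or more; the 2-fold threshold test is not drawn, since it does not change the estimate). All values lie below 0, and the open circles belong to Pcna, Ccna2 and Cdk1.

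The part of the HCC excess over control that was still present with NAC is given as a description, without a test. On mean CPM, the HCC/NAC livers kept 56.9% of the excess of Cdk1 and 52.9% of that of Mki67. They kept 37.2% for Top2a, 36.8% for Ccnb1 and 29.9% for Ccna2. Pairing the lowest HCC/NAC with the highest HCC library and the reverse gave 40.7% to 74.6% for Cdk1, 42.9% to 63.8% for Mki67, 34.6% to 39.9% for Top2a, 28.7% to 46.1% for Ccnb1 and 22.2% to 39.6% for Ccna2. The ranges of Cdk1, Mki67 and Ccnb1 overlap, as do those of Ccnb1, Top2a and Ccna2. For Pcna the value was 19.9% (4.29% to 36.6%), and for Ccnd1 no excess was left, since both HCC/NAC libraries lay under control.

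Count ratios between genes inside a library do not depend on how libraries are scaled. Their absolute size depends on transcript length, so only their change between libraries is read. Relative to the control mean, the ratio of Mki67 to Pcna was 7.56 and 7.20 in HCC and 5.45 and 6.14 in HCC/NAC, beside 1.04 and 0.96 in the control libraries. Ccnb1 to Pcna was 11.3 and 10.1 in HCC and 7.36 and 4.79 in HCC/NAC. For each of the 5 genes of S phase to mitosis, both HCC and both HCC/NAC libraries had a higher ratio to Pcna than either control library. In HCC, though not in HCC/NAC, Ccnd1 also met this criterion, at 1.06 in both libraries against 0.97 and 1.03 in control. Among all tested IDs other than Pcna, both libraries of the group stood above both control libraries for 18.5% in HCC and 29.1% in HCC/NAC.

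Cyclin D1 had a different course. The ratio of Ccnd1 to Pcna was 1.06 in both HCC libraries, beside 0.97 and 1.03 in control, and 0.73 and 0.59 in HCC/NAC. The HCC/NAC libraries were thus lowest in Ccnd1 also relative to Pcna. How many of all tested IDs had a lower ratio to Pcna in this way was not counted. Ratios between the mitotic partners varied within groups: the counts of Ccnb1 per count of Cdk1 were 0.74 and 1.39 in control, 1.77 and 1.43 in HCC and 1.54 and 0.75 in HCC/NAC, with overlap between all groups except control and HCC. With 2 libraries per group an exact permutation test of such a ratio cannot give p below 0.333, so none is quoted.

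**Figure D5:**
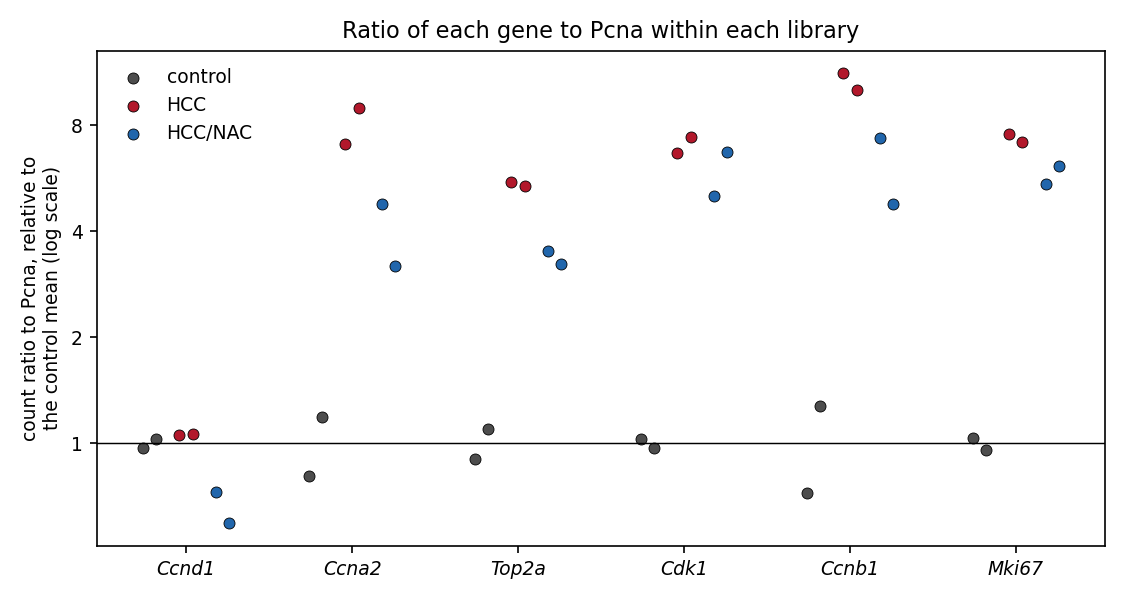
Count of each gene divided by the count of Pcna in the same library, relative to the mean of the 2 control libraries (log axis); each point is a library. Mki67, Ccnb1, Cdk1, Top2a and Ccna2 stand above control in both HCC and HCC/NAC, whereas Ccnd1 stays at 1.06 in HCC and falls to 0.73 and 0.59 in HCC/NAC.

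The shared course of the 7 genes was summarised by the mean of their standardised log2 CPM, which was -0.99 and -1.03 in control, 1.03 and 1.01 in HCC and -0.07 and 0.05 in HCC/NAC. Measured against the mean of the other 6 genes over the 6 libraries, Pearson's r was 0.98 for Top2a, 0.98 for Ccna2, 0.95 for Ccnb1, 0.93 for Mki67, 0.92 for Cdk1, 0.90 for Pcna and 0.49 for Ccnd1. The 6 libraries fall into 3 groups, so these coefficients mainly describe the order of the groups. Of 11866 other IDs with a mean of at least 2 CPM, 375 had r of at least 0.95 with the shared profile and 56 had r of at least 0.99. The closest, ENSRNOG00000008079 (r = 0.999 over 6 libraries), measured 372 and 366 CPM in control, 688 and 676 CPM in HCC and 486 and 496 CPM in HCC/NAC. The next, ENSRNOG00000059894 (r = 0.998 over 6 libraries), measured 0.87 and 1.00 CPM, 12.3 and 11.5 CPM, and 3.19 and 3.45 CPM in the same order. Neither ID was paired with a symbol here.

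The scale of the fold changes depends on the scaling, while their directions did not under any scaling tried. With library totals alone, an alternative chosen after the data were seen, the median of all IDs moved from 0.05 to 0.42 in HCC against control and from -0.05 to -0.42 in HCC/NAC against HCC. In these fits 5398 IDs rose and 1536 fell in the first comparison, in place of 2876 and 3007, and 783 were higher and 5811 lower in the second, in place of 1899 and 2787. Upper-quartile scaling moved the median of HCC/NAC against control from 0.05 to 0.19. All calls of the 7 genes held with library totals alone: Pcna was at 0.98 and -0.84, and Cdk1 at 3.79 and -1.09, in HCC against control and HCC/NAC against HCC. Relative to the shifted median, these values are close to those under TMM.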

How the data were processed

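The 6 libraries, 2 each from control, HCC and HCC/NAC livers, were made from total RNA by poly(A) selection, per the labels' protocols, which give 5 pooled animals for each group. FastQC, STAR, featureCounts and edgeR are named in the submitters' processing notes, without versions. Each deposited file lists whole-number read counts for Ensembl rat genes. Genome build, annotation release and the strand and pairing settings of the counting: not given in the sources used here. How reads shared with pseudogenes were handled is not stated. No molecular identifiers are mentioned, so limits from counts cover counting error only.

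The 7 members and all lists were chosen with earlier results of these data known. Every member is named by rule. Other listed genes would have been named by their change, but symbols were available for the members alone. The 2 IDs most like the members' mean profile are named by Pearson's r.

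Counts were fitted with edgeR 4.0.16 (R 4.3.3) after filterByExpr and TMM, with 1 quasi-likelihood model over all 6 libraries and a mean per group (3 residual degrees of freedom). Calls required a p under 0.05 after Benjamini-Hochberg adjustment over all 16898 IDs, and standard errors were derived from the F statistic. Reads per molecule were estimated for each library from IDs counted 20 to 50 times in the other replicate, as the expected count over minus the natural log of the share at 0. Alternatives were DESeq2 1.42.0, limma 3.58.1 (voom with library weights), RLE or upper-quartile scaling, no filter, a filter of 1 CPM or more in 4 or more libraries, a replicate block, only the compared groups, a 2-fold threshold, counts per estimated molecule, each library left out in turn and, added after the data were seen, library totals without a scaling factor.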

Additional observations from a re-analysis of the deposited data

How the results depend on the processing

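Over 17 alternatives for each gene and comparison, 337 of 357 values of the 7 genes kept their direction and side of the threshold. A further 20 kept the direction but lost the call, and none (0) reversed. Part of this was fixed beforehand, since the test against a 2-fold threshold keeps the estimate. Leaving out a library of the group not compared also moved the estimates little. The test against a 2-fold threshold accounts for 10 of the losses. It called 5 genes in HCC against control (not Pcna or Ccnd1) and 5 in HCC/NAC against control (not Ccnd1). In HCC/NAC against HCC, where the largest fall was 2.81-fold, it called 0 of 7. The share of all IDs that it called was not counted. Leaving out 1 library called 7 genes in each case in HCC against control and 6 in HCC/NAC against control. In HCC/NAC against HCC it called 4 to 7, with 4 without HCC replicate 2, 5 without HCC replicate 1 and 5 without HCC/NAC replicate 1. A group left with 1 library was assumed to vary like the others. The replicate block called 7, 6 and 7 genes in the 3 comparisons, as without it. Deviations of same-numbered libraries from their group means correlated at -0.01 to 0.01, and nothing in the labels ties a number to a shared batch or animal. Depth limits Ccna2 most, with 19 and 24 control counts (counting error 22.9% and 20.4%), before the larger error of several reads per molecule.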
